A study of Mus musculus with 10 samples.

Results

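Genes named Zfp followed by a number encode zinc finger proteins of the mouse, and 259 of them, without Zfp36, were among the 10419 genes to which the authors assigned an RNA polymerase II promoter peak in at least 1 library. In the deposited tables a promoter peak lies within 1000 bp of a start site. They were chosen by symbol alone, so neither peak length nor peak strength decided which genes entered. The DNA bound by RNA polymerase II had been mapped with ChIP-seq, that is by sequencing immunoprecipitated chromatin, in primary Th1 cells from mice of the strain Balb/c DO11.10. Th1 cells are helper T cells known for secreting interferon gamma. The antibody was 8WG16 (ab817). There were 3 groups of 2 libraries: cells without restimulation (NR), and cells taken 30 min or 2 h after restimulation. Restimulation was with anti-CD3 bound to the plate at 5 µg/ml together with soluble anti-CD28 at 2.5 µg/ml. All groups, NR included, had been primed as CD4+ T cells under Th1 conditions, grown on with an interleukin 2 analogue, kept for a day without it, and fixed in 1% formaldehyde for 10 min. DO11.10 mice carry a transgenic T cell receptor, so most of their T cells share a specificity. The labels do not say whether the 2 libraries of a group came from separate animals or cultures, so a p-value here reflects no more than the spread among the libraries at hand.

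Most Zfp genes encode proteins with arrays of C2H2 zinc fingers, each finger holding a zinc ion and contacting a few bases of DNA. Many carry a KRAB domain, through which they recruit the corepressor Trim28 and the histone methyltransferase Setdb1 to silence transposable elements. The family grew by tandem duplication, so many members lie side by side in chromosomal clusters, with close relatives as neighbours. Which members carry a KRAB domain was not analysed here.

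Of 371 Zfp genes in the RefSeq annotation of the build GRCm38.p6, 258 had a promoter peak, 69.5%, and the symbol Zfp607 has no entry of its own there. Among protein-coding genes the share was 69.9% for Zfp genes (256 of 366) and 42.6% for all genes (9340 of 21900). A peak in all 6 libraries was listed for 49.5% of protein-coding Zfp genes and for 31.1% of all protein-coding genes. Zfp genes were thus listed with a peak more often than protein-coding genes as a whole.

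A motif near the start sites of many members is shown first, because it was held by a larger share of Zfp promoters than of other promoters. It is CTACANTTC, the core of the site known to be bound by ZNF143, in mouse Zfp143, itself a zinc finger activator of many promoters. In the 250 bases before an annotated start, read on both strands in RefSeq promoter sequences, 35 of the 216 members with such a sequence held it, 16.2%. Among protein-coding Zfp genes with no promoter peak the share was 10.1% (9 of 89). It was 2.85% among other genes with a peak in all 6 libraries, and 2.16% over the 17493 protein-coding genes with a promoter sequence. Of these matches, 9 are given with their surroundings, 30 bases each from RefSeq on GRCm38.p6, read 5′ to 3′ on the strand that carries the motif, with the motif in capitals. The first 4 lie in one cluster on chromosome 13, the next 3 in one cluster on chromosome 7, and the last 2 are isolated genes.
Zfp708 chr13:67081576-67081605, plus strand: gctaagagagaCTACATTTCccagaagtct
Zfp759 chr13:67128168-67128197, minus strand: aggggccgggaCTACATTTCccacaaatca
Zfp457 chr13:67306470-67306499, plus strand: aggcgatgggaCTACATTTCccacaagtca
Zfp738 chr13:67683547-67683576, plus strand: aagggacgggaCTACACTTCccacaagtca
Zfp84 chr7:29768521-29768550, minus strand: tttatagtggaCTACATTTCccagaaggcg
Zfp74 chr7:29954095-29954124, plus strand: cttgctttgaaCTACATTTCccagagccct
Zfp260 chr7:30095039-30095068, minus strand: ttaactgtgaaCTACATTTCccagaagtct
Zfp189 chr4:49521146-49521175, minus strand: tggcaagcgaaCTACATTTCccggaatgca
Zfp1 chr8:111643409-111643438, minus strand: gaggtgtaggaCTACAATTCccataatgcc

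The 36 matches lay in 35 genes, beginning between 13 and 233 bp upstream of the start, and 27 began within 100 bp of it. They read on the strand of the gene in 9 cases. The unspecified base was T in 23 matches, A in 7, C in 5 and G in 1, and all 36 stretches of 30 bases were distinct. Clustered members held the motif in 25.0% of cases (29 of 116) and isolated members in 6.0% (6 of 100). A match is a description of letters and was not tested for binding.

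The promoters of 6 genes that the later comparisons turn on are given next as 250 bases before an annotated start, 5′ to 3′ on the strand of the gene, from RefSeq on GRCm38.p6. Zfp281 had the longest called promoter DNA of the family, Zfp296 had a peak at 2 h and in neither NR library, Zfp52 had the smallest p of the family between 2 h and 30 min, and Zfp207 had the highest rank by fold enrichment. Zfp933 and Zfp984 are neighbours on chromosome 4, the first with a promoter peak and the second without. Capitals mark matches to any of 9 motifs searched on both strands, and overlapping matches form 1 run.
Zfp281 chr1:136624651-136624900, plus strand: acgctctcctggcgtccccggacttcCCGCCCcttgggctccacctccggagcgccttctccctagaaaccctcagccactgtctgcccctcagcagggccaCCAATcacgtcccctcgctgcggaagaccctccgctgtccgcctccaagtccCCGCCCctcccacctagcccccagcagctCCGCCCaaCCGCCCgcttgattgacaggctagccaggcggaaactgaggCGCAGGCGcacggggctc
Zfp296 chr7:19577037-19577286, plus strand: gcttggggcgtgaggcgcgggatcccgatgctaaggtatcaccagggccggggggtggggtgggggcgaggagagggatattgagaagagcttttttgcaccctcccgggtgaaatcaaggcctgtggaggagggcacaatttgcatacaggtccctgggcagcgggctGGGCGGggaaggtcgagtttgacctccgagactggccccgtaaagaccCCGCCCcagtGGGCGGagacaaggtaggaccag
Zfp52 chr17:21535289-21535538, plus strand: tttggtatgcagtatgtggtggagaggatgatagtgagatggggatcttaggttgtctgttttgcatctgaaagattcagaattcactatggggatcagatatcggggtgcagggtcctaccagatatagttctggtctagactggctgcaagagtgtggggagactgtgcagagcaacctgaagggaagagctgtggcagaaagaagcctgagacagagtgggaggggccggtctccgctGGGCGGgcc
Zfp207 chr11:80383029-80383278, plus strand: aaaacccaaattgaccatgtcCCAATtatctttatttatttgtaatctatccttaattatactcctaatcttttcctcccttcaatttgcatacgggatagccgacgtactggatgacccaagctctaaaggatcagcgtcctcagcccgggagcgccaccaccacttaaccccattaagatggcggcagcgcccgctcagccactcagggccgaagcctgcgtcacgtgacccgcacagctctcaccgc
Zfp933 chr4:147848419-147848668, minus strand: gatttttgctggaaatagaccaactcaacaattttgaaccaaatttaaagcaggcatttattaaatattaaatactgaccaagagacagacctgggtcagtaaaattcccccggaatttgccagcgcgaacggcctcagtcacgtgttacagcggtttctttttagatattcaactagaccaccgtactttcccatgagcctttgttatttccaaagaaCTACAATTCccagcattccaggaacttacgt
Zfp984 chr4:147809789-147810038, minus strand: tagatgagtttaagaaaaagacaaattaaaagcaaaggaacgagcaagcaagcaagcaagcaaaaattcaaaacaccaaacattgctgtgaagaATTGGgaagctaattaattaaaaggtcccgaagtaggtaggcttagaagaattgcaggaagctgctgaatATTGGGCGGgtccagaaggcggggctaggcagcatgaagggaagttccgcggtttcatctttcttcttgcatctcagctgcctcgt

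The motifs searched, with the share of protein-coding genes with a promoter sequence that hold each, were the GC box GGGCGG (45.8%), the CCAAT box CCAAT (39.5%), the TATA box TATAAA (13.7%), the ETS site CCGGAAG (10.2%) and the NRF1 site CGCNTGCG (10.3%). The others were the ZNF143 core, the palindromic element CTCGCGAG (1.17%), the cAMP response element TGACGTCA (2.20%) and the AP-1 site TGANTCA (7.19%). Among the 216 members with a sequence, the GC box was held by 45.8%, the CCAAT box by 50.5%, the ETS site by 19.0% and the NRF1 site by 15.7%. The palindromic element was held by 0.463% of them. The AP-1 site, bound by Fos and Jun proteins after T cell activation, was held by 4.17% of the members, the cAMP response element by 4.17% and the TATA box by 8.33%. Zfp281 held 4 GC boxes, a CCAAT box and an NRF1 site, Zfp296 held 3 GC boxes, and Zfp52 held 1 GC box. Zfp207 held 1 CCAAT box, Zfp933 only the ZNF143 site, and Zfp984 a GC box and 2 CCAAT boxes.

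Zfp promoters with and without an assigned peak differed in median CpG content, with wide overlap. The ratio of observed to expected CpG in the promoter sequence had a median of 0.68 in the 149 members with a peak in all 6 libraries, 0.64 in the 67 members with a peak in 1 to 5, and 0.43 in the 89 protein-coding Zfp genes with none. The share with a ratio over 0.6 was 62.4%, 62.7% and 32.6% in these sets. Other genes with a peak in all 6 libraries had a median of 0.80, with 79.5% over 0.6, so the occupied Zfp promoters were poorer in CpG than the other occupied promoters. Neighbouring members share descent, so these medians are descriptions.

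**Figure D1:**
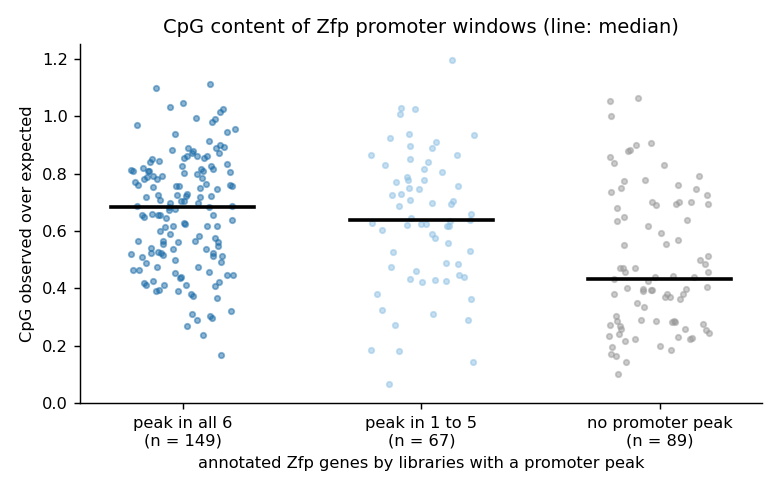
CpG observed over expected in the RefSeq promoter sequences of annotated Zfp genes, one point per gene, with the genes split by the number of libraries with a promoter peak and a line at each median. The medians are 0.68, 0.64 and 0.43, and all 3 sets span a wide range.

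Between 199 and 250 members had a promoter peak in a given library, with 205 and 245 in NR replicates 1 and 2, 199 and 250 in those at 30 min, and 237 and 250 in those at 2 h. Replicate 2 had more members than replicate 1 in each group. The counts were 224.5 ± 36.1 at 30 min and 225.0 ± 28.3 in NR cells (SD, n = 2 each; exact permutation test, two-sided, p = 1). They were 243.5 ± 9.19 at 2 h against 225.0 ± 28.3 in NR cells (p = 0.667, exact permutation test), and 243.5 ± 9.19 at 2 h against 224.5 ± 36.1 at 30 min (p = 1, exact permutation test). With 2 libraries against 2 the smallest p that this test allows is 0.333. Zfp genes made up 2.45% to 2.61% of the genes with a peak in a library, so their number moved with that of all genes, which ran from 8058 to 9704.

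A peak in all 6 libraries was listed for 183 of the 259 members, 70.7%. It was listed for 7410 of the 10419 genes with a peak in any library, 71.1%, so the 2 shares were close. There were 30 members with a peak in 5 libraries, 20 in 4, 14 in 3, 4 in 2 and 8 in only 1. Of the 76 members not seen in every library, 59 had a peak in all 3 replicates 2 and were missing from at least 1 replicate 1, and 0 had the reverse pattern. This pattern was counted over members only, so it was not shown to be particular to the family. In every group more genes of any kind had a peak in replicate 2 than in replicate 1. The gap was widest at 30 min (9704 genes against 8058) and narrowest at 2 h (9700 against 9310). Zfp28, Zfp30, Zfp90, Zfp93, Zfp229, Zfp273, Zfp286, Zfp606, Zfp629 and Zfp946 had a peak in every replicate 2 and in no replicate 1. The lists held 15330 to 23299 peaks and 9074 to 10680 promoter peaks. Deposited pileup values rose in steps of 1 in the replicates 1 and of 0.58 to 0.71 in the replicates 2, so those of the replicates 2 had been scaled down. The read counts were not given in the sources used here, and the part of depth in these presence calls was not tested. Markers of T cells had a promoter peak in every library (8 of 8), markers of Th1 cells in 4 or 5 of 5, and of myeloid cells in 0 of 6. Those of NK cells had one in 1 or 2 of 4 (Klrk1 and Eomes), of Th2 cells in 0 to 2 of 3 (Il4 and Il13), of erythroid cells in 0 or 1 of 3 (Klf1) and of CD8 T cells in 0 or 1 of 2 (Cd8b1, in every replicate 2). No peak was listed for Il17a of Th17 cells or for Foxp3 of regulatory T cells, and the part of other cells in the Zfp peaks was not tested. Of the B cell markers, Ms4a1, Cd79a, Cd79b and Pax5 had no promoter peak in any library, and Ebf1 had 482 bp in replicate 2 at 30 min, 513 bp in replicate 2 at 2 h and none in the other 4 libraries.

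By the authors' assignment 8 members were seen in a single library. Zfp277 had 263 bp and Zfp418 had 334 bp, both only in replicate 1 at 2 h, where the median over members was 883 bp. Zfp239 had 529 bp and Zfp9 had 656 bp, both only in replicate 2 at 2 h, where that median was 1053 bp. Zfp653 and Zfp664 were listed only in replicate 1 at 30 min, Zfp772 only in replicate 2 at 30 min and Zfp941 only in replicate 2 of NR cells. By position Zfp277 had called promoter DNA in 4 libraries, and Zfp653 and Zfp664 had it in all 6.

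No promoter peak was listed for 113 annotated Zfp genes. A peak summit lay inside the gene or within 1 kb of it for 39 of these, in at least 1 library, and 73 had neither a summit nor called promoter DNA there. Called promoter DNA lay there for 26 of the 113, assigned to other symbols. A gene without a promoter peak here is thus one without an assigned peak. Zfp42, a marker of embryonic stem cells also called Rex1, Zfp57, which maintains imprints, and Zfp366, known from dendritic cells, were among the genes without a summit. Zfp521, known from early haematopoietic and B lineage cells, also had none. Zfp831 had a summit in all 6 libraries and no promoter peak.

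Occupied members, those with an assigned promoter peak, were spread over 20 chromosomes, unevenly. Chromosome 7 held the most, with 68 of its 90 annotated Zfp genes occupied, followed by chromosome 17 with 30 of 41 and chromosome 13 with 27 of 33. The shares were lowest on chromosome 4, with 8 of 28 (28.6%), and on chromosome 2, with 9 of 24 (37.5%). On chromosome 6, 17 of 18 were occupied.

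Runs of at least 3 Zfp genes with starts no more than 200 kb apart were taken as clusters, which gave 29 clusters holding 179 of the 371 annotated genes. Genes outside such runs are called isolated, which includes neighbouring pairs such as Zfp286 and Zfp287 and genes in looser runs. A promoter peak in any library was listed for 131 clustered genes (73.2%) and for 127 of 192 isolated genes (66.1%). Per library the shares were 54.7% to 70.9% for clustered and 52.1% to 64.1% for isolated genes, and a peak in all 6 libraries was listed for 50.8% and 47.4%. The share was higher in clustered genes in all 6 libraries, which is a description. Reads that map equally well to near-identical genes may not be placed, so the absence of a peak among close copies is uncertain, and mappability was not analysed here. In 11 clusters every gene had a peak, and in 2 clusters none had.

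The clusters of at least 5 genes differed widely. On chromosome 13 (67038594 to 67827000, GRCm38.p6, as for all positions here), 18 of 19 genes had a peak, 14 of them in all 6 libraries, and between 14 and 18 in each library. They were Zfp712, Zfp708, Zfp759, Zfp455, Zfp458, Zfp457, Zfp595, Zfp456, Zfp429, Zfp459, Zfp58, Zfp87, Zfp748, Zfp738, Zfp65, Zfp85, Zfp493 and Zfp273, and only Zfp953 had none, though a summit lay in or near it in all 6 libraries. On the distal part of chromosome 4 (147124882 to 147849126) 1 of 9 genes had a peak. It was Zfp933, at the end of the run, with a peak in 5 libraries. The neighbours Zfp978, Zfp991, Zfp988, Zfp982, Zfp985, Zfp979, Zfp534 and Zfp984 had none, and neither had the 3 genes of the next cluster (146449030 to 146991471), Zfp992, Zfp981 and Zfp993. A peak summit lay in the gene or within 1 kb of it in all 6 libraries for Zfp984 and Zfp993, in 4 for Zfp978 and Zfp991 and in 1 for Zfp979, and in none for the other six. This part of chromosome 4 is known for young KRAB zinc finger genes that act on endogenous retroviruses in mouse embryonic stem cells.

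On chromosome 17 (21383707 to 22456689), 10 of 18 genes had a peak, namely Zfp677, Zfp54, Zfp51, Zfp53, Zfp52, Zfp760, Zfp229, Zfp942, Zfp758 and Zfp946. A second cluster there (32765496 to 33110707) had 7 of 8, Zfp871, Zfp799, Zfp870, Zfp472, Zfp952, Zfp763 and Zfp563. On chromosome 7 the largest cluster (29768552 to 30169775) had 13 of 15, with Zfp84, Zfp30, Zfp790, Zfp940, Zfp420, Zfp383, Zfp74, Zfp568, Zfp14, Zfp82, Zfp260, Zfp382 and Zfp146. Zfp568 is known as a repressor of a placental Igf2 transcript. In the next largest cluster of chromosome 7 (24081877 to 24316698), 6 of 10 had a peak: Zfp180, Zfp235, Zfp109, Zfp93, Zfp61 and Zfp94.

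Among the smaller clusters of chromosome 7, all 6 genes had a peak at 4915181 to 5053723 (Zfp628, Zfp579, Zfp524, Zfp865, Zfp784, Zfp580) and all 6 at 6131489 to 6396637 (Zfp787, Zfp444, Zfp667, Zfp583, Zfp78, Zfp28). All 5 had one at 12803778 to 12985717 (Zfp329, Zfp110, Zfp128, Zfp324, Zfp446). At 27731409 to 28014210 it was 3 of 5 (Zfp60, Zfp59, Zfp850), and at 127233061 to 127615785 it was 6 of 8 (Zfp771, Zfp747, Zfp764, Zfp688, Zfp689, Zfp629). On chromosome 6 (47815536 to 48086986) all 8 had a peak: Zfp786, Zfp398, Zfp282, Zfp212, Zfp783, Zfp956, Zfp777 and Zfp746. On chromosome 8 (69610654 to 69774911) all 5 had one, Zfp868, Zfp964, Zfp869, Zfp963 and Zfp866. On chromosome 9 all 5 had one at 20345136 to 20605404 (Zfp560, Zfp26, Zfp426, Zfp266, Zfp846) and 4 of 5 at 22055411 to 22307814 (Zfp653, Zfp809, Zfp599, Zfp810).

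**Figure D2:**
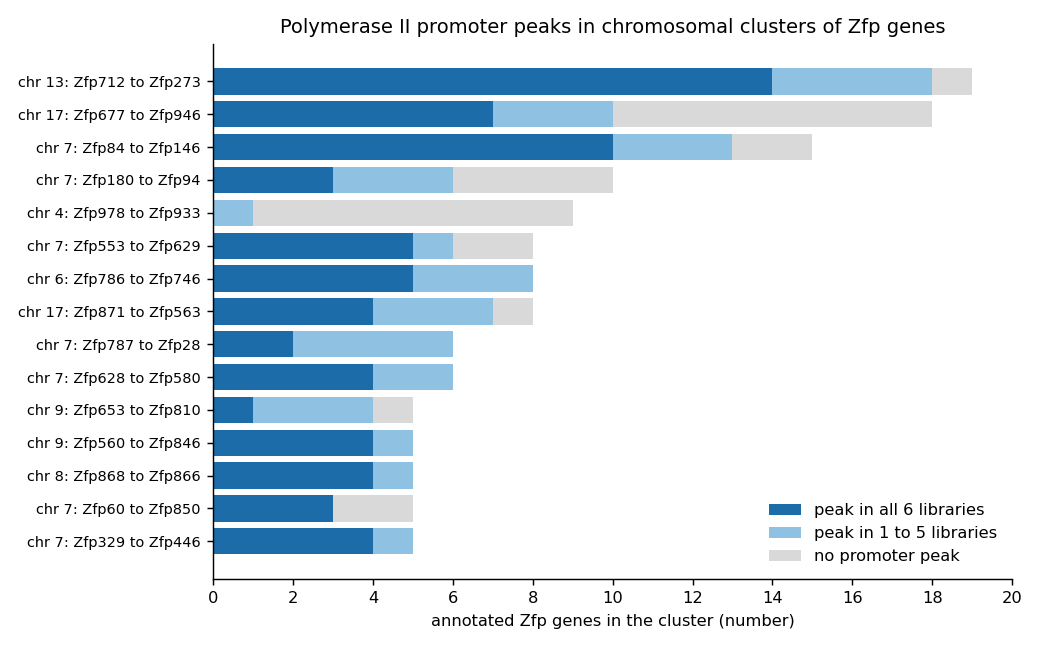
Annotated Zfp genes in each chromosomal cluster of at least 5 genes, by whether a polymerase promoter peak was listed in all 6 libraries, in 1 to 5, or in none. The chromosome 13 cluster has a peak at 18 of 19 genes and the chromosome 4 cluster at 1 of 9.

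The summed length of promoter peaks assigned to a gene, in bp, is called promoter length here. Its median over members with a peak was 705 and 838 bp in NR replicates 1 and 2, 626 and 965 bp in those at 30 min, and 883 and 1053 bp at 2 h. Over all genes with a peak it was 806 and 984 bp without restimulation, 777 and 1284 bp at 30 min, and 1121 and 1336 bp at 2 h. The Zfp median was the lower in every library. Lengths over 2 kb were reached by 1.51% to 14.4% of members in a library and by 7.90% to 24.5% of all genes. Of the clustered members 0 exceeded 2 kb in either NR library, against 5 and 10 isolated members (replicates 1 and 2), and in the 2 h libraries 3 and 9 clustered members did, against 18 and 27 isolated ones.

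Peak strength was read only as a rank within a library, since the deposited fold enrichment over local background belongs to its own list. The median member stood at percentile 34.0 to 41.8 of the genes in a library, below the middle in all 6. Between 6 and 9 members were in the top 10% of a library. Zfp207, a microtubule-binding protein that loads the checkpoint protein Bub3, stood at percentile 98.3 and 99.2 in NR cells, 95.9 and 98.6 at 30 min, and 96.3 and 91.3 at 2 h. Its median of 97.3 was the highest of the members with a peak in all 6 libraries. Zfp809, which in mice silences retroviruses through the primer binding site for proline tRNA, followed with a median of 94.2. Zfp869 had 91.7, Zfp433 had 90.6 and Zfp719 had 90.1, and Zfp143 had 88.2. Zfp809 stood at 62.1 and 87.3 in NR cells, 92.2 and 96.2 at 30 min, and 98.3 and 97.1 at 2 h. Ranks from lists of different lengths cannot be used to tell whether its peak changed between times.

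Members with the ZNF143 site ranked lower than members without it in all 6 libraries. Their median percentile ran from 17.8 to 32.3, and that of members without the site from 39.4 to 46.3. In replicate 1 of NR cells it was 23.0 with and 46.3 without the site, and in replicate 2 at 2 h 28.7 with and 41.5 without. Of the 35 members with the site 29 were clustered, and clustered members stood at a median of 32.9 to 41.9 and isolated members at 37.5 to 42.4. Zfp189, with the site, stood at a median of 78.0, and Zfp661, also with the site, at 2.76, so the ranks within the set were far apart. Genes are not replicates, so this is a description.

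**Figure D3:**
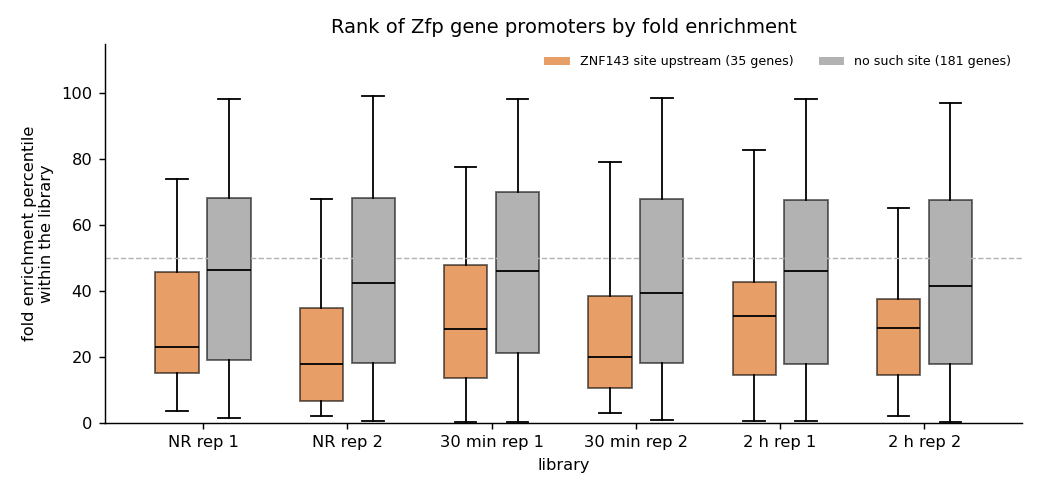
Percentile of fold enrichment among all genes of the same library for the 35 members with a ZNF143 site in the 250 bases upstream (left box of each pair) and the 181 members without one (right box). Boxes span the quartiles with a line at the median, whiskers reach 1.5 times the box, and the dashed line is the middle of each library. The median with the site is the lower in all 6 libraries.

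The longest called promoter DNA averaged over the 6 libraries was at Zfp281, Zfp217, Zfp513, Zfp91 and Zfp263. Zfp91, which encodes a ubiquitin ligase of the noncanonical NF-kappaB pathway, had 2575 and 2617 bp without restimulation, 2911 and 3254 bp at 30 min, and 3000 and 3191 bp at 2 h, a narrow range beside the others. Zfp513 had 1197 and 2951 bp without restimulation, 1530 and 4455 bp at 30 min, and 2754 and 5161 bp at 2 h, with replicate 2 the longer in each group. Zfp335, needed for the maturation of T cells in mice, had 1236 and 1603 bp without restimulation, 1378 and 2067 bp at 30 min, and 1722 and 1983 bp at 2 h. Its groups overlapped in bp at 30 min and not at 2 h against NR, and the centred change at 2 h over NR was −0.11 ± 0.14 (adjusted p = 0.767 in limma), so the longer bp at 2 h did not exceed the shift of all genes. Zfp143 itself had 1978 and 2073 bp without restimulation, 2230 and 3397 bp at 30 min, and 2853 and 2902 bp at 2 h. Its centred change at 2 h over NR was 0.01 ± 0.17 (adjusted p = 0.985 in limma).

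To compare times, promoter length was taken as log2(bp + 100), each library was centred on its median, and limma was fitted over the 9908 genes that had a peak in 2 libraries or more. Of the 259 members 251 passed that filter, so counts below cover those and not the family. Log2 changes are on this scale, which understates changes of short peaks, and are relative to the library medians, without which the median of all genes shifted by 0.12 at 30 min over NR, 0.45 at 2 h over NR and 0.30 at 2 h over 30 min. ChIP-seq of pooled cells cannot tell fewer cells with polymerase at a promoter from less polymerase per cell.

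At 30 min against NR cells 0 of 251 members were longer and 0 were shorter at an adjusted p under 0.05 in limma, where 0.232% of all genes were longer and 0.0101% shorter. At an unadjusted p under 0.05 there were 6 longer and 5 shorter members, 4.38% in all. Of all genes 5.85% were longer and 2.15% shorter at that level, 8.00% in all. The median log2 change was −0.09 over the members and −0.04 over all genes tested, and 33.5% of members and 45.4% of all genes were above 0. Groups did not overlap in the direction of longer for 28 members, 11.2%, against 18.8% of all genes, and in the direction of shorter for 60, 23.9%, against 18.9% of all genes. Without centring the median was 0.07 over the members, so the sign below 0 is relative to all genes.

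The smallest adjusted p at 30 min belonged to Zfp330, whose human counterpart is a nucleolar protein. It had 1519 and 2915 bp at 30 min, against 965 and 1168 bp in NR cells. The change was 0.77 ± 0.13 (log2, SE) with an adjusted p of 0.145 in limma, and both libraries at 30 min were longer than both NR libraries. Zfp263 had 1624 and 3810 bp at 30 min, against 1415 and 1538 bp in NR cells (0.56 ± 0.18, adjusted p = 0.540 in limma). Zfp3 had 1263 and 3794 bp at 30 min, against 1105 and 1180 bp in NR cells (0.73 ± 0.27, adjusted p = 0.602 in limma). In bp, replicate 2 carried most of the difference in these 3 genes. With each library left out in turn, the centred change of Zfp330 ran from 0.71 to 0.83. That of Zfp263 ran from 0.36 to 0.76 and that of Zfp3 from 0.37 to 1.10.

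Zfp217, a component of corepressor complexes known as an oncogene from human breast cancer, had 996 and 4033 bp at 30 min, against 2933 and 5220 bp in NR cells. The groups overlapped in bp, and the centred change was −1.08 ± 0.41 with an adjusted p of 0.608 in limma. The 5 largest negative values among members whose centred groups did not overlap were at Zfp781, Zfp956, Zfp788, Zfp652 and Zfp760, from −1.93 to −1.38. All 5 had no peak in replicate 1 at 30 min and a length of 633 to 1197 bp in replicate 2, so in bp all 5 overlapped NR cells. Zfp781, for example, had 0 and 1192 bp at 30 min, against 1139 and 1109 bp in NR cells. Their adjusted p ran from 0.670 to 0.711 in limma. Without replicate 2 at 30 min, Zfp781, Zfp788 and Zfp956 passed the test, with adjusted p of 0.0353, 0.0221 and 0.0391, on the 1 remaining library at 30 min.

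At 2 h against NR cells 0 of 251 members were longer and 0 shorter in limma, where 0.373% of all genes were longer and 0.0606% shorter. At an unadjusted p under 0.05 there were 10 longer and 9 shorter members, 7.57% in all. Of all genes 7.95% were longer and 4.65% shorter, 12.6% in all. The median change was −0.06 over the members and −0.03 over all genes, and 42.6% of members and 47.2% of all genes were above 0. Groups did not overlap in the longer direction for 37 members, 14.7%, against 22.3% of all genes, and in the shorter direction for 77, 30.7%, against 30.8% of all genes.

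**Figure D4:**
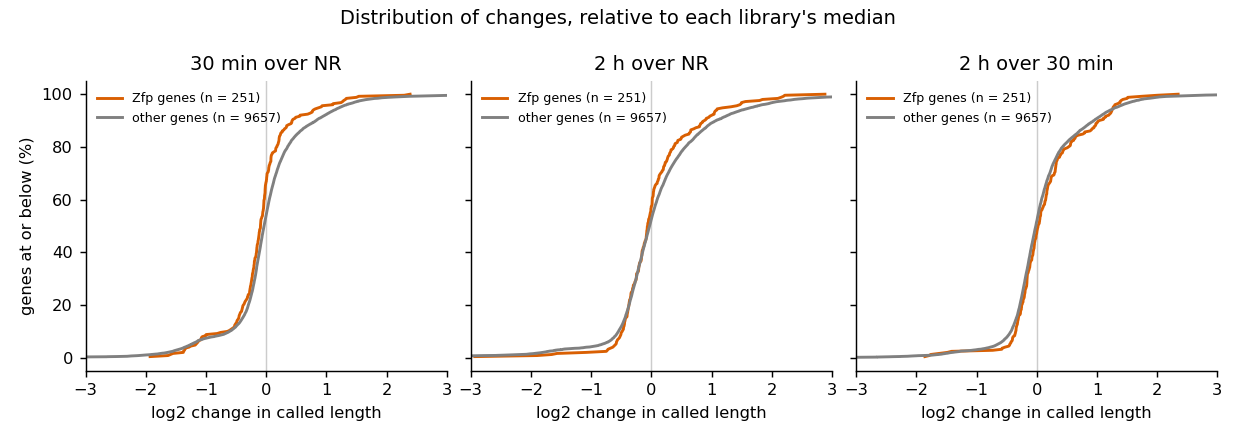
Cumulative share of genes (vertical axis, percent) at or below a log2 change in called promoter length (horizontal axis, relative to each library's median) for Zfp genes and for the other genes tested. At 30 min over NR and at 2 h over NR the Zfp curve lies above the other above 0, so fewer Zfp genes reached large positive values, and at 2 h over 30 min the curves run close together.

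Zfp281, a transcription factor known from embryonic stem cells, had the most called DNA at 2 h. It had 4081 and 9971 bp at 2 h, against 1076 and 1435 bp in NR cells, and 1450 and 4394 bp at 30 min. Both libraries at 2 h lay above both NR libraries. The change at 2 h over NR was 1.80 ± 0.41 with an adjusted p of 0.191 in limma, and 9971 bp was the longest value of any member in any library. Over the 250 bases printed above, Zfp281 has a CpG ratio of 0.70. Over the whole promoter sequence, as used for the medians of the sets, it is 0.79.

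Zfp608, which represses the Rag1 and Rag2 genes in mouse thymocytes, had 2866 and 3271 bp at 2 h, against 581 and 965 bp in NR cells, and 701 and 3161 bp at 30 min. The change was 1.42 ± 0.41 with an adjusted p of 0.294 in limma. Fitted on the 4 NR and 2 h libraries alone it was 1.42 ± 0.16 with an adjusted p of 0.0415, and it also passed without either library at 30 min (adjusted p = 0.0451 without replicate 1 and 0.0406 without replicate 2). The libraries at 30 min were far apart at this gene. Outside the naming rule, and after their values were seen, Zfp608, Zfp52, Zfp131, Zfp189, Zfp335, Zfp143 and Zfp1 were picked out, as were Zfp217 at 30 min, Zfp263 at 30 min and 2 h, and Zfp3 at 2 h.

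Zfp263 had 3644 and 4257 bp at 2 h, against 1415 and 1538 bp in NR cells (0.88 ± 0.18, adjusted p = 0.159 in limma). Zfp52, of the chromosome 17 cluster, had 1697 and 2526 bp at 2 h, against 594 and 901 bp in NR cells (0.91 ± 0.19, adjusted p = 0.178 in limma). Zfp131 had 2656 and 3002 bp at 2 h, against 1014 and 1507 bp in NR cells (0.65 ± 0.15, adjusted p = 0.191 in limma). In these 3 genes the groups did not overlap in bp. Zfp189 had 1479 and 1442 bp at 2 h, against 544 and 689 bp in NR cells, and Zfp3 had 2902 and 2900 bp at 2 h, against 1105 and 1180 bp in NR cells, with adjusted p of 0.296 and 0.342 in limma.

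Zfp236 had the smallest adjusted p of the family in this comparison, with the shorter values at 2 h. It had 2073 and 2150 bp at 2 h, against 3331 and 3198 bp in NR cells, and the change was −1.08 ± 0.20 (adjusted p = 0.129 in limma). By position, counting called promoter DNA inside the gene and 1 kb around it, Zfp236 had 2073 and 2150 bp at 2 h, against 2067 and 2177 bp in NR cells. In bp, the difference by the authors' assignment was thus not found over the gene itself. Similar bp at both times is still a fall relative to all genes, whose median rose by 0.45 at 2 h over NR without centring. By the authors' assignment and with quantile normalisation Zfp236 passed, at −1.39 with an adjusted p of 0.0408 in limma. By the number of summits its change had the other sign, at 0.29.

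Zfp467, known from adipocyte and osteoblast differentiation in mice, had 0 and 709 bp at 2 h, against 1194 and 1782 bp in NR cells, and 313 and 1401 bp at 30 min. Its groups did not overlap at 2 h against NR, and the adjusted p was 0.324 in limma. It passed with promoter lists cut to equal length, with an adjusted p of 0.0351. Zfp524, Zfp316 and Zfp551 were listed with no peak in both 2 h libraries and with a peak in 1 NR library each, of 618, 413 and 354 bp. By position this did not hold for Zfp524, which had 1631 and 1892 bp at 2 h, against 1325 and 1728 bp in NR cells.

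**Figure D5:**
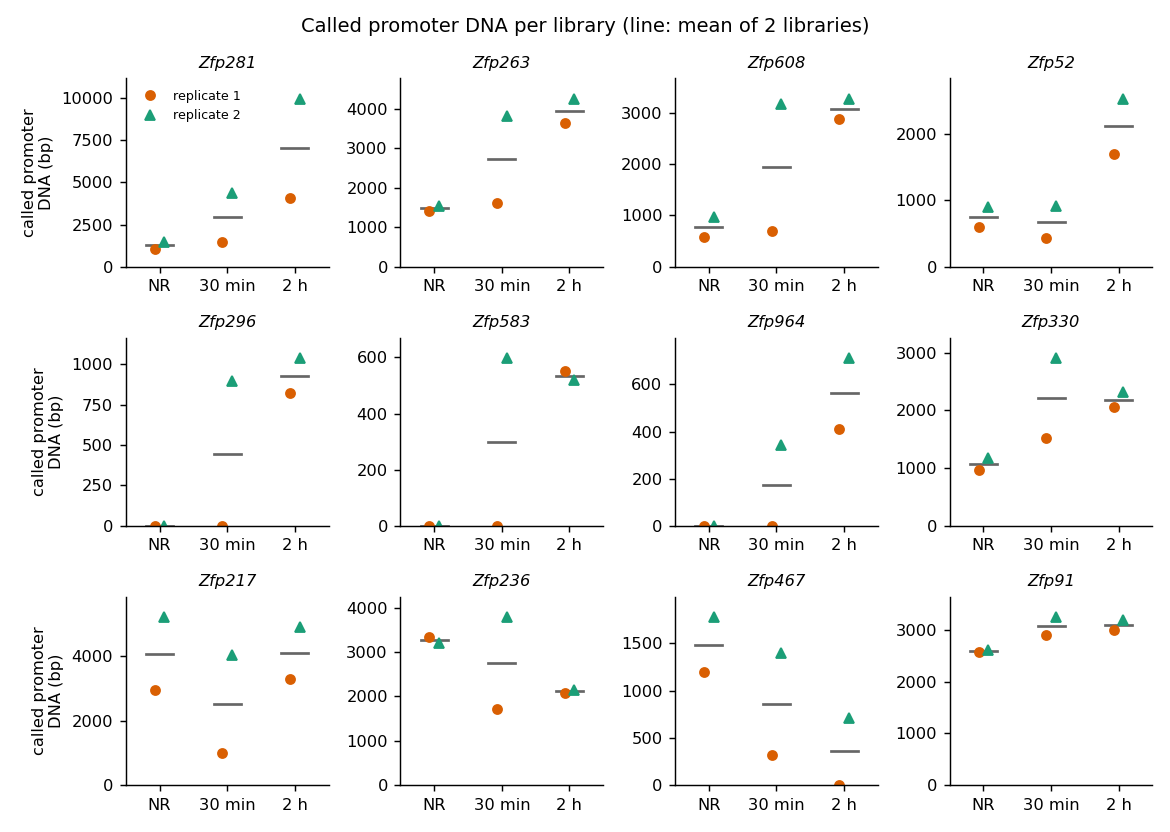
Called promoter DNA in bp (vertical axis, from 0) in each of the 6 libraries for 12 members, by time of restimulation, with circles for replicate 1, triangles for replicate 2 and a line at the mean of the 2 libraries. Zfp281, Zfp263, Zfp608 and Zfp52 have both libraries at 2 h above both NR libraries, Zfp296, Zfp583 and Zfp964 are at 0 in both NR libraries, and Zfp91 varies little.

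Between 2 h and 30 min 0 of 251 members were longer and 0 shorter in limma, as were 0.0% and 0.0% of all genes. At an unadjusted p under 0.05 there were 1 longer and 3 shorter members, 1.59% in all. Of all genes 2.26% were longer and 2.92% shorter, 5.18% in all. The median change was 0.02 over the members and −0.01 over all genes. Groups did not overlap in the longer direction for 63 members, 25.1%, against 17.4% of all genes, and in the shorter direction for 45, 17.9%, against 19.0% of all genes. The same 2 libraries at 2 h or at 30 min enter more than one of these comparisons, so their values are not independent.

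Zfp52 had 1697 and 2526 bp at 2 h, against 433 and 909 bp at 30 min, and both libraries at 2 h were longer than both at 30 min. The change was 1.25 ± 0.19 with an adjusted p of 0.289 in limma, the smallest of the family. Zfp703, a corepressor of the NET family, had 2444 and 3064 bp at 2 h, against 335 and 1610 bp at 30 min (1.40 ± 0.75, adjusted p = 0.866 in limma). Zfp827 had 1921 and 2848 bp at 2 h, against 0 and 1383 bp at 30 min, and its NR libraries had 0 and 1464 bp, so both groups it was set against held 1 library without a peak. Without replicate 2 at 30 min, Zfp788 and Zfp790 passed as longer at 2 h, with adjusted p of 0.0263 and 0.0475. Both had no peak in replicate 1 at 30 min, and 1197 and 918 bp in replicate 2.

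A peak in both libraries of one time and in neither of the other was counted as gained or lost. At 30 min against NR cells 2 members gained a peak, Zfp148 and Zfp740, where 0.374% of all genes did, and 0 lost one, where 0.365% did. At 2 h against NR cells 5 members gained a peak, Zfp148, Zfp296, Zfp583, Zfp786 and Zfp964, where 2.57% of all genes did, and 0 lost one, where 0.662% did. At 2 h against 30 min only Zfp786 gained a peak, where 0.71% of all genes did, and 0 lost one, where 0.096% did. These counts of 2, 5 and 1 of 259 members were not tested against the shares over all genes.

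Gains by assignment and gains by position did not coincide. Zfp296, known from the reprogramming of mouse cells to pluripotency, had 820 and 1040 bp at 2 h and was listed with no peak in both NR libraries, and at 30 min it had 0 and 894 bp. Zfp583 had 550 and 521 bp at 2 h, none in both NR libraries, and 0 and 599 bp at 30 min. Zfp964 had 412 and 713 bp at 2 h, none in both NR libraries, and 0 and 344 bp at 30 min. For these 3 genes no called promoter DNA lay in the gene or within 1 kb of it in either NR library, so the gain at 2 h held by position.

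Zfp148, also called ZBP-89, which binds GC-rich promoters, had 385 and 517 bp at 30 min and 418 and 586 bp at 2 h, and no assigned peak in both NR libraries. Called DNA of 802 and 1505 bp in its gene or flank in NR cells was assigned to 1700007L15Rik instead. Zfp740 had 596 and 392 bp at 30 min and none in NR cells, where 766 and 756 bp in its gene or flank were assigned to Csad. Zfp786 had 318 and 496 bp at 2 h and none in NR cells or at 30 min, while its neighbour Zfp398 held 740 and 1218 bp in NR cells within the same window. By position, then, 0 members gained a peak at 30 min over NR.

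None of the genes listed as partners of KRAB zinc finger proteins passed the test in limma. The list for KRAB corepressors and heterochromatin held 26 symbols, with Fam208a and Tasor naming the same gene. A promoter peak was listed for 25 symbols, under Fam208a and not under Tasor. Of these, 24 had one in all 6 libraries, and 0 of 25 passed limma in any of the 3 comparisons. At an unadjusted p under 0.05 there were 1 longer and 1 shorter at 30 min over NR, 0 and 3 at 2 h over NR, and 0 and 2 at 2 h over 30 min. Of all genes 8.00%, 12.6% and 5.18% reached that level in these comparisons, both directions together. The median change of the listed genes was 0.01 at 30 min over NR, −0.02 at 2 h over NR and −0.08 at 2 h over 30 min. Over all genes tested it was −0.04, −0.03 and −0.01. Trim28, the shared corepressor, had 874 and 2503 bp at 30 min and 2025 and 2386 bp at 2 h, against 1886 and 2387 bp in NR cells. Its groups overlapped in bp. The centred change of Trim28 was −0.64 ± 0.23 at 30 min over NR and −0.43 ± 0.23 at 2 h over NR (adjusted p = 0.567 and 0.492 in limma). Setdb1, the methyltransferase, had 526 and 1472 bp at 30 min and 745 and 1172 bp at 2 h, against 401 and 608 bp in NR cells. In bp it overlapped NR cells at 30 min and not at 2 h. The centred change of Setdb1 was 0.58 ± 0.28 at 30 min over NR and 0.32 ± 0.28 at 2 h over NR (adjusted p = 0.697 and 0.652 in limma). Cbx5, heterochromatin protein 1 alpha, had 4908 and 10816 bp at 2 h, against 2150 and 2305 bp in NR cells, with a change of 1.19 ± 0.48 and an adjusted p of 0.398 in limma. Chd4, a chromatin remodeller of the NuRD complex and the one gene of the 25 without a peak in all 6 libraries, had 568 and 0 bp at 30 min and was listed with no peak in both 2 h libraries, against 478 and 691 bp in NR cells (adjusted p = 0.395 at 2 h over NR in limma). By position, peaks of 1708 and 1906 bp at 2 h and of 1748 bp in replicate 2 at 30 min lay in the gene or its flank and were assigned to Mir7045.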

How the data were processed

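RNA polymerase II ChIP-seq was analysed in 6 libraries, 2 each of NR, 30 min and 2 h cells, and 3 libraries for H3K36me3 and 1 input library were not analysed here. The submitters' processing notes name the build mm10 and the tools BWA 0.7.13, Picard 1.119 and MACS2 2.1.0. Peaks were called per library, since each has its own deposited lists, and no source used here names the tool that assigned promoter peaks to genes. For each peak the authors deposited its length in bp, its pileup (a coverage signal), its fold enrichment (a ratio to local background) and its p-value and q-value as −log10. Fold enrichment was used only for ranks within a library and −log10 q only to filter, and no read count or total depth was given.

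Widths of promoter peaks assigned to a gene were summed. log2(bp + 100) was centred on each library's median over the 7410 genes with a peak in all 6 libraries. The 9908 genes that had a peak in 2 libraries or more were fitted in limma 3.58.1 under R 4.3.3 (lmFit and eBayes, trend on, all 6 libraries, group only), with Benjamini-Hochberg adjusted p under 0.05 over all genes. The procedure was tested on simulated data with normal noise, the same spread for every gene and no absent peaks. These data differ from that setting, so the simulation does not cover absent peaks or unequal spread. Positions, names and promoter sequences came from RefSeq (GRCm38.p6), where 216 of 259 members matched a promoter sequence. Per comparison the naming rule took members past the threshold, then up to 10 with the largest rise and 5 with the largest fall whose centred groups did not overlap, members gained or lost, the 5 longest, the 5 with the highest rank and the clusters of at least 5 genes. Members, lists, motifs and tests were chosen with earlier results of these data known. Alternatives were the pseudocount, filter, normalisation, peak threshold, equal lists, assignment by position, summit number, a replicate block and each library left out. A count of members by protein features was not made. Some marker genes are not reported here.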

Additional observations from a re-analysis of the deposited data

How the results depend on the processing

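No member passed limma in any comparison at a pseudocount of 10 or 1000 bp, with no filter or a peak in all 6 libraries, without centring, with a −log10 q of at least 5, with assignment by position or with the replicate block, where the count was 0 longer and 0 shorter. Equal lists gave 1 shorter member and quantile normalisation 1 shorter member at 2 h over NR, and the 4 libraries alone 1 longer. The number of summits gave 1 longer and 1 shorter at 30 min over NR, 2 longer and 1 shorter at 2 h over NR, and 1 longer at 2 h over 30 min, at genes whose replicates were equal, so that their variance was 0 before moderation. Leaving out 1 library gave 0 longer and 0 to 3 shorter at 30 min over NR, 0 to 1 longer and 0 shorter at 2 h over NR, and 0 to 2 longer and 0 shorter at 2 h over 30 min.

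Gains at 30 min over NR were 1 over merged regions (1 bp of overlap) and 0 by position, an alternative chosen after seeing the data. Gains at 2 h over NR were 8 over regions with 1 bp and 20 with at least 50% of the region covered, and losses were 3 with equal lists, 1 with 1 bp and 2 with 50%. Gains at 2 h over 30 min were 3 with equal lists, 2 with 1 bp and 4 with 50%, and losses 3 with equal lists. Leaving out 1 library gave 2 to 12 gained and 0 to 20 lost at 30 min over NR, 5 to 32 and 0 to 3 at 2 h over NR, and 1 to 42 and 0 to 3 at 2 h over 30 min. The highest counts came without replicate 2 of NR (12 and 32 gained) and without replicate 2 at 30 min (20 lost, 42 gained), which leave a replicate 1 alone. The share of clustered genes with a peak was 65.9% with equal lists.

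Of single members, Zfp296 at 30 min over NR changed sign with equal lists (−0.17), Zfp933 at 2 h over NR with −log10 q of at least 5 (−0.16), and at 2 h over NR Zfp281 (−0.13) and Zfp236 (0.29) by the number of summits. The causes were not tested.

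Same-numbered libraries deviated together (correlations of 0.44, 0.27 and 0.41 over genes), but there are only 2 numbers and the labels do not tie them to an animal or day, so the block is given here alone. Depth in reads is not known and replicates 1 and 2 differ in scaling.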

Other observations

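Among protein-coding genes a promoter peak was listed for 68.6% of Zbtb, Zkscan, Zscan and Zfx genes (48 of 70), for 65.4% of Klf and Sp genes (17 of 26) and for 4 of 5 Ikzf genes, and for 69.9% of Zfp genes. Sp100, Sp110 and Sp140, nuclear body proteins that share only the letters, were left out of the second list after the values were seen, and with them it was 20 of 29. None passed limma in any comparison, over 46, 15 and 4 genes tested. At an unadjusted p under 0.05 there were 3 longer and 2 shorter genes at 30 min over NR, 2 and 2 at 2 h over NR and 0 at 2 h over 30 min in the first list. In the second there were 1 and 0, 1 and 1, and 0 and 1 in the same comparisons, and in the third 1 longer at 30 min over NR and 0 in the others. Of all genes 8.00%, 12.6% and 5.18% reached that level in the same comparisons, both directions together. The median change at 2 h over NR was −0.09 in the first list, −0.16 in the second (−0.31 with those 3 genes) and 0.18 in the third. Over all genes tested it was −0.03. Zbtb17, also called Miz-1, had 1892 and 2074 bp at 2 h, against 662 and 737 bp in NR cells (0.90 ± 0.17, adjusted p = 0.129 in limma). Klf6, an early response gene, stood at a median fold enrichment percentile of 99.9 and had 7191 and 12914 bp at 2 h, against 3047 and 2781 bp in NR cells (1.22 ± 0.39, adjusted p = 0.324 in limma). Zbtb32, a repressor known from activated lymphocytes, had 2929 and 0 bp at 30 min, was listed with no peak in both 2 h libraries, and had 906 and 1816 bp in NR cells. Ikzf1, a regulator of lymphocyte development, had 13171 and 16675 bp at 2 h, against 8642 and 12477 bp in NR cells, and its centred change was 0.03 ± 0.40 (adjusted p = 0.980 in limma).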
